A study of Mus musculus with 10 samples.

Results

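Survivin is encoded by Birc5, and with Aurkb (Aurora B kinase) and Incenp (inner centromere protein) it belongs to the chromosomal passenger complex of dividing cells. These 3 genes were followed through resting, activated and dividing mouse B cells. They were taken as every row of the expression table whose gene symbol was Birc5, Aurkb or Incenp. The rule found 3 of the 6610 gene symbols and 5 of the 13128 RefSeq transcript rows, with 2 rows for Birc5, 1 for Aurkb and 2 for Incenp. All 3 genes were among the 4427 that passed the filter on low values, which was at least 1 TPM in at least 2 libraries. Borealin (Cdca8), the remaining core subunit, was not found among those gene symbols and was not analysed here.

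The series measured total RNA, depleted of ribosomal RNA, from splenic B lymphocytes of C57BL/6 mice in 5 groups of 2 libraries, under a title about survivin and cell divisions that need no mitogen. Resting cells that were not activated form the group naive. In Phase I, cells were given a pulse of antibodies to the antigen receptor (anti-IgM) and to the co-stimulatory receptor CD40, and after 48 h the cells that had not divided (div0) and those that had (div12) were taken. In Phase II, div12 cells were kept for a further 48 h with 0.12 µg/ml anti-CD40 and sorted by flow cytometry into a fraction without a further division (div12_48_u) and a fraction that had divided in that time (div12_48_d). All activated groups therefore share the pulse with both antibodies, and both Phase II groups share a division in Phase I. Each Phase I replicate is a pool of 4 to 5 mice and the labels call these replicates independent. The labels do not say what separates the Phase II replicates, for which p-values may measure technical spread only. The gene fits below take their spread from all groups together, so this limit also reaches p-values between the other groups. RNA came from 1000000 cells in Phase I and 500000 in Phase II, so phase, time in culture, cell input and any batch cannot be told apart.

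The passenger complex corrects wrong attachments between chromosomes and spindle fibres and later takes part in the cut that separates the daughter cells. Incenp is its scaffold, Aurkb its kinase, and survivin, with borealin, brings it to the centromere. Survivin is also classed with the inhibitor of apoptosis proteins because it carries their BIR domain. In many cells its transcript and those of its partners are low at rest and peak late in the division cycle, and lymphocytes raise them when they leave rest.

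The sequences that tell the 2 Birc5 rows apart come first, because the rows did not keep the same balance in all groups. In the mouse build GRCm38, with the GENCODE M21 transcripts that carry these RefSeq names, both rows lie on the plus strand of chromosome 11. NM_009689 spans 117849251 to 117855732 in 4 exons with 947 bases and encodes 140 amino acids. NM_001012273 spans 117849319 to 117855743 in 3 exons with 3334 bases and encodes 121 amino acids. It keeps all 2444 bases between exon 3 and exon 4 of NM_009689 (117852781 to 117855224), reads 24 coding bases into that stretch and stops. Below, the last 30 bases of exon 3 that both rows share (chr11:117852751-117852780) are in lower case, and the bases that follow in each row are in capitals. In NM_009689 they are the first 30 bases of exon 4, chr11:117855225-117855254, and in NM_001012273 they are the retained bases up to and including the stop codon, chr11:117852781-117852807.
NM_009689: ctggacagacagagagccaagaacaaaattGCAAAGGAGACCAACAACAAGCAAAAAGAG
NM_001012273: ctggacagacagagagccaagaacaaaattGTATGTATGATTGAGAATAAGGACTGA
The rows share 879 bases, which is 92.8% of NM_009689 and 26.4% of NM_001012273, while 68 bases are found in NM_009689 alone and 2455 in NM_001012273 alone. Total RNA also holds unspliced RNA, and a 50-base read inside the retained stretch is the same in an unspliced Birc5 RNA and in the NM_001012273 mRNA, so these cannot be told apart in these values.

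**Figure D1:**
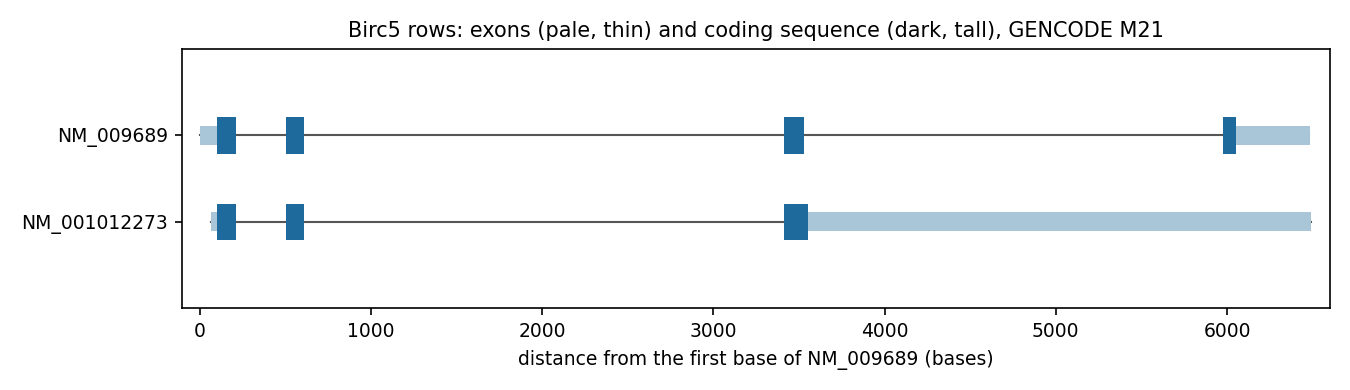
The 2 Birc5 rows drawn to scale on the distance from the first base of NM_009689 (x axis, bases), with exons pale and coding sequence dark. NM_001012273 runs on through the 2444 bases that NM_009689 splices out, and its coding part ends 27 bases into them, the stop codon included.

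Because Birc5 has a promoter entry in the RefSeq table (GRCm38.p6) and its RNA moved with a group of cell cycle genes described further on, the 250 bases before its start are shown (chr11:117848987-117849236, plus strand). Capitals mark the 2 matches to the GC box letters GGCGGG, which begin 85 bases (on the minus strand) and 47 bases (on the plus strand) before the start.
Birc5 promoter: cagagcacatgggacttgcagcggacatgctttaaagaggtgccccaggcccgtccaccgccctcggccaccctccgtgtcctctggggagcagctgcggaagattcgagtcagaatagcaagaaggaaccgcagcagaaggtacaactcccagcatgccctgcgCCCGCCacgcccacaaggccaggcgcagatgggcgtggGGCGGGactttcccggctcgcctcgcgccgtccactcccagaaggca
The 4 motifs named here were searched on both strands in windows from 250 bases before to 50 after the start, and 32851 such windows of 300 bases were searched alike. GGCGGG was held by 35.3% of them. Birc5 had no match to CCAAT (held by 37.4%), to TTTGAA (the CHR letters, 17.9%) or to TTNGCGC (E2F letters, 6.36%), which says only that these letters are not in this window. The other sequences of the 3 genes are not printed, and their positions on GRCm38 are given in the text. Aurkb (NM_011496) covers 69045652 to 69051664 on the plus strand of chromosome 11 in 8 exons with 1950 bases and encodes 345 amino acids. Incenp lies on the minus strand of chromosome 19, where NM_016692 covers 9872296 to 9899551 in 18 exons with 3236 bases and encodes 876 amino acids.

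Levels are in TPM, a transcript abundance that scales each library to 1000000 and allows for transcript length, so levels of different genes may be compared as RNA molecules. TPM keeps no read count, so the sequencing depth is unknown and no counting interval is given. B cell markers were high in every library, with the 8 of 10 listed in the table summing to between 16773 and 26484 TPM, as the label says. The naive libraries also held more RNA of other cells: 4 of 8 erythroid markers in the table summed to 2676 and 3196 TPM against 10.9 to 43.5 in the other groups, and 11 of 12 myeloid markers to 743.5 and 2140 TPM against 88.6 to 304, with C1qa at 0 in every activated group. The myeloid markers did not all go this way. Adgre1 was at 23.4 and 65.6 TPM in naive, 108 and 103 in div12_48_u and 139 and 204 in div12_48_d. Adgre1 was named after seeing its values. The 4 of 7 NK markers summed to 84.8 and 132 TPM in naive against 3.37 to 6.49 elsewhere, and the 5 of 9 T cell markers to 43.9 and 54.9 against 5.50 to 11.8. The 6 of 8 plasma cell markers summed to 874 and 2041 TPM in naive, to 972 and 1193 in div12_48_d and to between 389 and 480 in the other groups. The part of these cells in the comparisons below was not tested. In bulk RNA, fewer cells of a type and less RNA per cell cannot be told apart, and this holds for all 3 genes.

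Birc5 had the widest range of the 3 genes. Its 2 rows summed to 27.9 and 33.4 TPM in the naive libraries (replicates 1 and 2), 287 and 372 in div0, and 540.0 and 505 in div12. In Phase II it stood at 113 and 98.5 TPM in div12_48_u and at 317 and 272 in div12_48_d. The naive libraries were lowest, both div12_48_u libraries came next, and both div12 libraries were highest, with no overlap between these groups. The div0 and div12_48_d libraries lay between and overlapped each other. As means ± SD (n = 2) the levels were 30.7 ± 3.90, 106 ± 10.4, 294 ± 31.3, 329.7 ± 60.3 and 522 ± 24.8 TPM for naive, div12_48_u, div12_48_d, div0 and div12.

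Aurkb, the kinase that phosphorylates histone H3 and kinetochore proteins in mitosis, had a narrower range. Its level was 26.6 and 35.6 TPM in naive, 135 and 183 in div0, and 242 and 166 in div12. In Phase II it was 85.9 and 63.3 TPM in div12_48_u and 150 and 158 in div12_48_d. Here div12 was not a separate group, since its replicate 2 lay between the 2 div0 libraries, as did both div12_48_d libraries. The group means were 31.1 ± 6.37 TPM in naive, 74.6 ± 16.0 in div12_48_u, 154 ± 5.55 in div12_48_d, 159 ± 34.1 in div0 and 204 ± 53.7 in div12.

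Incenp, which binds and activates Aurora B, started higher and changed least. It measured 59.3 and 56.5 TPM in naive, 182 and 239 in div0, and 312 and 203 in div12. Phase II gave 128 and 88.3 TPM in div12_48_u and 199.6 and 206 in div12_48_d. As for Aurkb, the second div12 library and both div12_48_d libraries fell inside the div0 range, while the naive and div12_48_u libraries stood apart below. The means were 57.9 ± 1.94, 108 ± 28.1, 203 ± 4.32, 210.1 ± 40.2 and 258 ± 77.6 TPM for naive, div12_48_u, div12_48_d, div0 and div12. All 3 genes thus had the same order of group means, and each was highest in the same library, div12 replicate 1.

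**Figure D2:**
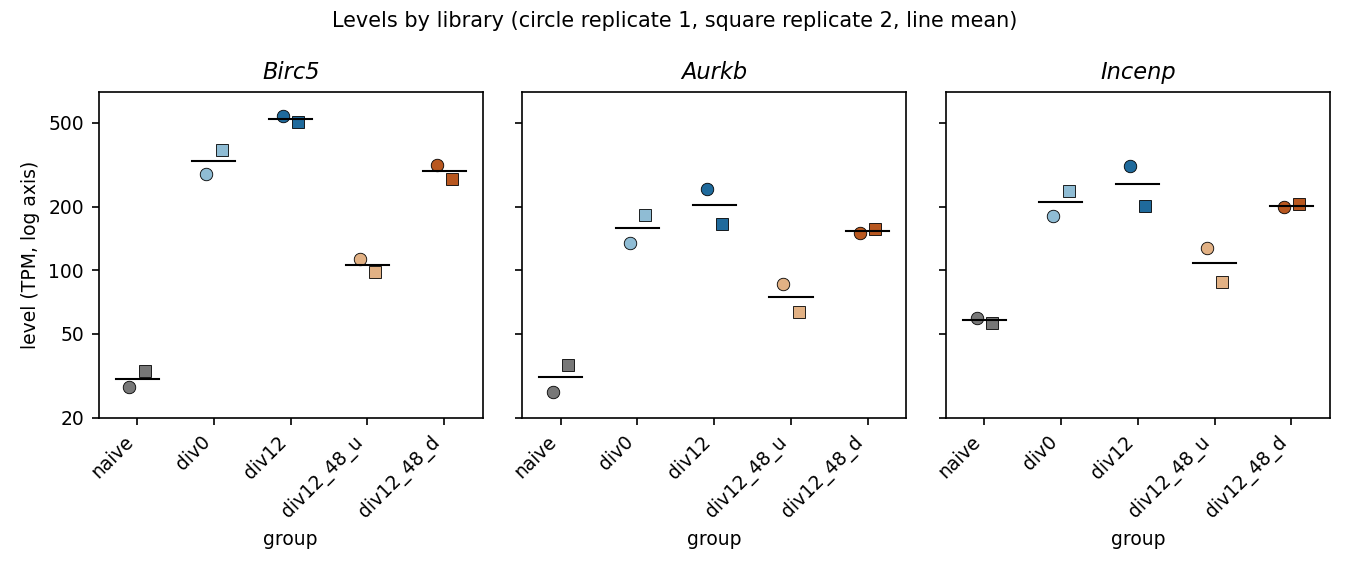
Level of each gene (y axis, TPM, log axis) in each library, by group (circles replicate 1, squares replicate 2, line the mean of 2). For Birc5 both div12 libraries, 540.0 and 505 TPM, lie above all others, and for Aurkb and Incenp one div12 library lies among the div0 libraries.

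The genes were tested with limma on log2(TPM + 1) in 1 fit over all 10 libraries. The words rose and fell are kept for genes whose Benjamini-Hochberg adjusted p over 4427 genes was under 0.05 in a two-sided test. Folds are on that scale, which understates the change of low genes, and are given as log2 ± standard error. The comparisons share groups, so values from different comparisons are not independent of each other. Where naive cells enter, the median of all tested genes lay below 0, at −0.24 for div0, −0.35 for div12, −0.11 for div12_48_u and −0.21 for div12_48_d, and against div12 it was 0.16 for div12_48_u.

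All 3 genes rose in activated cells that had not yet divided. From naive to div0, Birc5 rose 10.4-fold (3.38 ± 0.15, limma adjusted p = 4.555e-06), the 8th largest rise of the 4427 genes. Aurkb rose 4.98-fold (2.32 ± 0.24, adjusted p = 1.418e-04) and Incenp 3.55-fold (1.83 ± 0.23, adjusted p = 4.152e-04). Of all genes, 54.9% were called in this comparison, 15.4% higher and 39.6% lower, so a call alone was common while the size for Birc5 was not. Those shares depend on the scaling between libraries: 28.0% of the calls were upward here, against 49.2% after median-ratio scaling and 55.5% after quantile normalization. Upward calls rose in the same way in the other comparisons with naive, from 29.0% to 35.9% of calls to between 48.8% and 59.9%. From div0 to div12 they went from 42.0% to 63.8% with median-ratio scaling, and in div12_48_u against div12 and against div0 and in div12_48_d against div12 they fell from 67.0%, 66.2% and 74.4% to between 46.2% and 51.2%. In div12_48_d against div0 quantile normalization moved them from 62.3% to 49.0%. Neither scaling turned the direction or changed the call of Birc5, Aurkb or Incenp in any comparison where they passed. From naive to div0, 4 of 4 erythroid, 10 of 11 myeloid, 4 of 4 NK, 5 of 5 T cell and 5 of 6 plasma cell markers fell. Of these, Cd68 and Xbp1 lost their calls with median-ratio scaling (limma adjusted p = 0.0735 and 0.157) and with quantile normalization (0.0726 and 0.118). Prdm1 and Tnfrsf17 lost theirs with quantile normalization (0.241 and 0.148).

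The divided Phase I cells stood further from rest. Between naive and div12 Birc5 rose 16.6-fold (4.05 ± 0.15, limma adjusted p = 1.320e-06), the 5th largest rise. Aurkb rose 6.32-fold (2.66 ± 0.24, adjusted p = 3.581e-05) and Incenp 4.29-fold (2.10 ± 0.23, adjusted p = 1.052e-04), where 66.9% of genes were called and 19.4% were higher.

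Between the undivided and divided cells of Phase I, Birc5 alone among the 3 passed the threshold. From div0 to div12 Birc5 rose 1.60-fold (0.67 ± 0.15, limma adjusted p = 0.0361), where 8.76% of genes were called and 3.68% were higher. For Aurkb the log2 difference was 0.35 ± 0.24 (95% interval −0.19 to 0.89, adjusted p = 0.391) and for Incenp 0.27 ± 0.23 (−0.26 to 0.80, adjusted p = 0.494). Those intervals include the Birc5 value, so the genes are not shown to differ in this step. The Birc5 call is fragile: the adjusted p passed 0.05 without any 1 of the div0, div12 or div12_48_u libraries (0.0504 to 0.254), and when div0 and div12 were fitted by themselves (0.0644).

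The cells that stopped dividing in Phase II had lower levels of all 3 genes than the divided cells they came from. Between div12 and div12_48_u Birc5 fell 4.90-fold (−2.29 ± 0.15, limma adjusted p = 6.746e-05), the 7th largest fall of 4427 genes. Aurkb fell 2.69-fold (−1.43 ± 0.24, adjusted p = 0.00211) and Incenp 2.35-fold (−1.23 ± 0.23, adjusted p = 0.00385). In this comparison 41.3% of genes were called and 13.6% were lower. Phase and time in culture differ between these groups as well as division.

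In those cells all 3 genes, each summed over its rows, stayed above resting levels. Against naive, div12_48_u held 3.38-fold more Birc5 (1.76 ± 0.15, limma adjusted p = 7.951e-05), 2.35-fold more Aurkb (1.23 ± 0.24, adjusted p = 0.00369) and 1.82-fold more Incenp (0.87 ± 0.23, adjusted p = 0.0173), where 42.5% of genes were called and 15.2% were higher. The Incenp call was lost without either naive library or without div12_48_u replicate 1 (adjusted p 0.0604 to 0.113). Set against div0, the other population without a division in its last 48 h, div12_48_u was lower in Birc5 by 3.07-fold (−1.62 ± 0.15, adjusted p = 9.669e-04), in Aurkb by 2.12-fold (−1.08 ± 0.24, adjusted p = 0.0196) and in Incenp by 1.95-fold (−0.96 ± 0.23, adjusted p = 0.0277), with 15.4% of genes called and 5.20% lower. Of these, the Aurkb call was lost without div0 replicate 2 (0.159) or div12_48_u replicate 2 (0.114), and the Incenp call without either div0 library (0.0570 and 0.208) or div12_48_u replicate 2 (0.153), in the unfiltered fit (0.0561) and in the fit of the 2 groups alone (0.0590).

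The cells that divided again in Phase II stood above those that did not in all 3 genes. Birc5 was 2.76-fold higher in div12_48_d than in div12_48_u (1.47 ± 0.15, limma adjusted p = 7.527e-04), a difference that no left-out library or other setting took past the threshold. Aurkb was 2.07-fold higher (1.05 ± 0.24, adjusted p = 0.0147) and Incenp 1.90-fold (0.92 ± 0.23, adjusted p = 0.0226). In this comparison 25.6% of genes were called, 12.2% higher and 13.4% lower. The calls of Aurkb and Incenp were lost without div12_48_u replicate 2, div12_48_d replicate 1 or div12_48_d replicate 2 (adjusted p 0.0619 to 0.0896 for Aurkb and 0.0811 to 0.126 for Incenp), and that of Incenp in the fit of the 2 groups alone (0.0525).

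Against naive cells, div12_48_d was 9.33-fold higher in Birc5 (3.22 ± 0.15, limma adjusted p = 2.540e-06), 4.86-fold in Aurkb (2.28 ± 0.24, adjusted p = 8.838e-05) and 3.46-fold in Incenp (1.79 ± 0.23, adjusted p = 2.933e-04), where 62.4% of genes were called and 21.8% were higher. Compared with div12, its Phase I source, Birc5 was 1.78-fold lower (−0.83 ± 0.15, adjusted p = 0.00826), with 15.9% of genes called and 4.09% lower. Leaving out div12_48_d replicate 2 gave 0.0739. Aurkb differed by −0.38 ± 0.24 (95% interval −0.92 to 0.16, adjusted p = 0.324) and Incenp by −0.31 ± 0.23 (−0.84 to 0.22, adjusted p = 0.417). Between div12_48_d and div0 no gene of the 3 passed, with 18.5% of genes called: the log2 differences were −0.15 for Birc5 (−0.50 to 0.19), −0.03 for Aurkb (−0.57 to 0.51) and −0.04 for Incenp (−0.57 to 0.49). These intervals include differences in either direction and do not show equal levels.

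The gap between divided and undivided cells was wider in Phase II than in Phase I by 0.79 ± 0.21 (log2) for Birc5, 0.70 ± 0.33 for Aurkb and 0.65 ± 0.33 for Incenp, and none of these differences passed (limma adjusted p = 0.217, 0.553 and 0.588). None of the 4427 genes did in limma, 438 of them having an unadjusted p under 0.05. In the order of levels, then, naive and div12_48_u differed in each gene, as did div12_48_u and div12_48_d. The neighbours div12_48_d and div0 did not pass in any, and the neighbours div0 and div12 passed for Birc5.

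**Figure D3:**
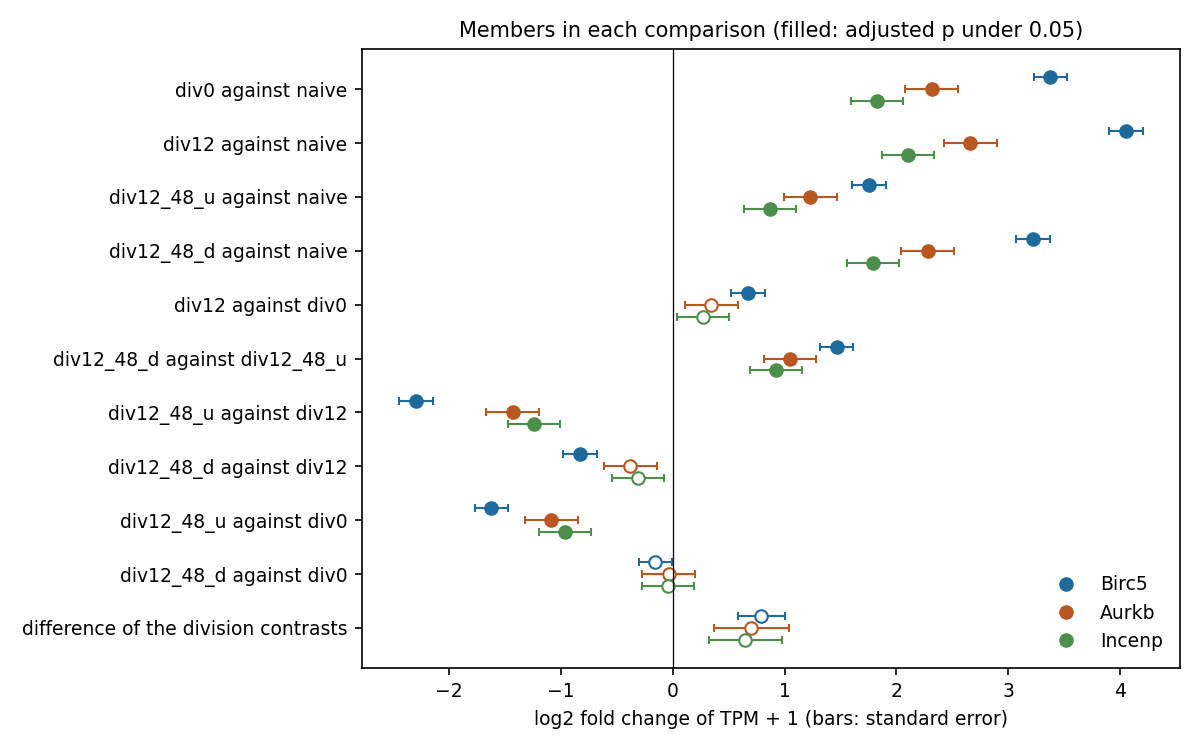
Log2 fold change of TPM + 1 (x axis) for the 3 genes in the 10 comparisons between groups and the difference of the division contrasts (y axis), with bars of 1 standard error and filled points where the adjusted p was under 0.05. Birc5 lies farther from 0 than Aurkb and Incenp in every line, from 4.05 in div12 against naive to −2.29 in div12_48_u against div12.

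The fully spliced Birc5 row carried most of the signal and most of the change. NM_009689 measured 17.6 and 24.2 TPM in naive, 260 and 335 in div0, 487 and 462 in div12, 92.8 and 87.8 in div12_48_u and 286 and 247 in div12_48_d. NM_001012273, the row that keeps the stretch before exon 4, measured 10.3 and 9.23 TPM in naive, 27.2 and 37.3 in div0, 53.2 and 43.1 in div12, 20.5 and 10.8 in div12_48_u and 30.9 and 25.0 in div12_48_d. Both were lowest in naive and highest in div12, and the second spanned a much smaller range. Its 10.8 TPM in div12_48_u replicate 2 was close to the naive level, while replicate 1 of that group lay between naive and div0.

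As a share of Birc5 TPM, NM_001012273 made up 37.0% and 27.6% in the naive libraries. It was 9.46% and 10.03% in div0, 9.86% and 8.53% in div12 and 9.75% and 9.18% in div12_48_d. In div12_48_u it was 18.1% and 10.9%, so 1 of these 2 libraries was near the other activated groups and the other was between them and naive. Both naive libraries lay above all 8 others. The means were 32.3 ± 6.65% in naive, 14.5 ± 5.07% in div12_48_u and 9.20% to 9.74% in the remaining groups.

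**Figure D4:**
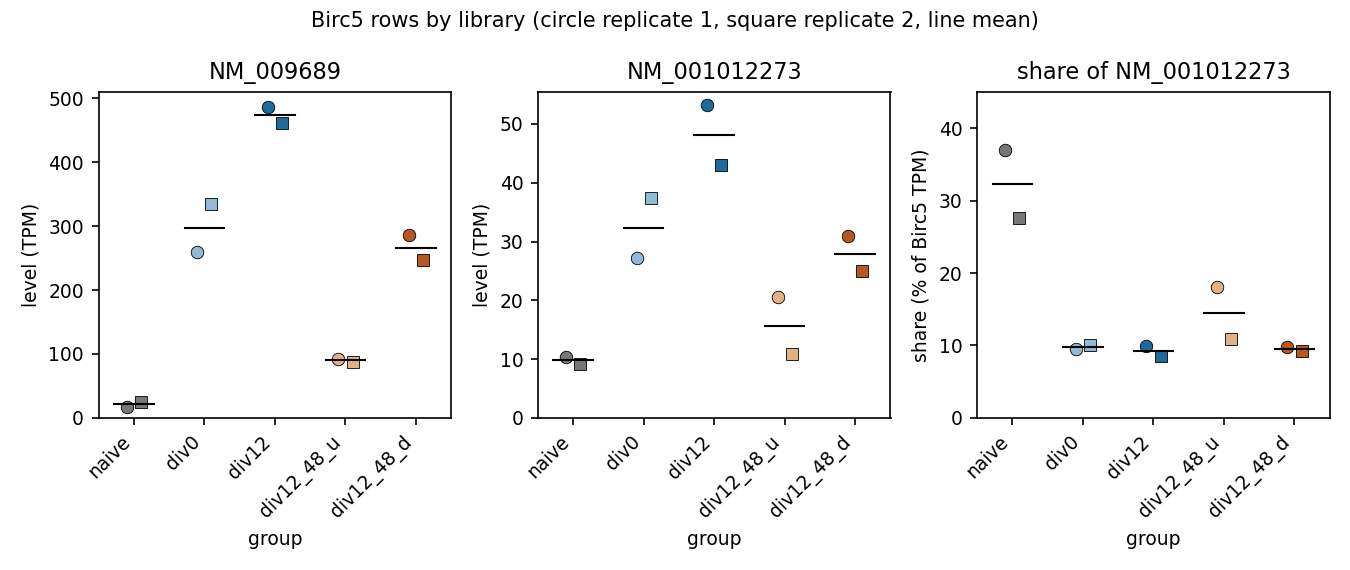
Level of each Birc5 row (left and middle, y axis in TPM with different ranges) and the share of NM_001012273 in Birc5 TPM (right, %) by library (circles replicate 1, squares replicate 2, line the mean of 2). The share is 37.0% and 27.6% in naive and 8.53% to 18.1% in the activated libraries.

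Fitted by row over 8165 rows, both rose from naive to div0, NM_009689 by 3.77 ± 0.17 (log2, limma adjusted p = 1.617e-05) and NM_001012273 by 1.61 ± 0.30 (adjusted p = 0.00505), where 34.1% of rows were called. Both also rose in div12 and div12_48_d against naive, by 4.46 against 2.18 and by 3.62 against 1.42, with 50.4% and 43.1% of rows called. In div12_48_u against naive NM_009689 rose by 2.07 (limma adjusted p = 1.546e-04) and NM_001012273 differed by 0.56 (adjusted p = 0.214), with 23.9% of rows called. From div12 to div12_48_u they fell by 2.38 (adjusted p = 3.368e-04) and 1.62 (adjusted p = 0.00800), with 23.2% of rows called. Between the Phase II groups NM_009689 was higher in div12_48_d by 1.55 (adjusted p = 0.00309) and NM_001012273 differed by 0.85 (adjusted p = 0.118), with 9.65% of rows called. From div0 to div12 neither row passed when tested by itself (0.68 and 0.57, adjusted p = 0.0998 and 0.359), where 0.784% of rows were called. Against div0, div12_48_u was lower in NM_009689 (−1.70, adjusted p = 0.00417) and NM_001012273 differed by −1.05 (adjusted p = 0.0905), with 5.12% of rows called. From div12 to div12_48_d NM_009689 fell by 0.83 (adjusted p = 0.0294) and NM_001012273 differed by −0.77 (adjusted p = 0.187), with 5.88% of rows called, and between div12_48_d and div0 neither row passed, with 8.97% of rows called. The div12_48_d call of NM_009689 was lost without any 1 of the div12, div12_48_u and div12_48_d libraries (adjusted p 0.0548 to 0.199), and its div12_48_u call against div0 without div0 replicate 2 or div12_48_u replicate 2 (0.0518 and 0.0528). The NM_001012273 difference of div12_48_u from naive passed without div12_48_u replicate 2 (0.0492).

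The balance of the rows was tested directly as log2 of NM_009689 over NM_001012273, each plus 1 TPM, across the 1881 genes with several rows. It moved toward NM_009689 from naive to div0 by 2.16 ± 0.32 (limma adjusted p = 0.0198), to div12 by 2.27 (adjusted p = 0.00837) and to div12_48_d by 2.21 (adjusted p = 0.0116), where 4.25%, 11.6% and 8.45% of these genes were called. For div12_48_u against naive it was 1.51 (adjusted p = 0.0683), with 1.81% of genes called. Among the activated groups no comparison of the balance passed for Birc5, where 0% to 0.851% of genes were called (0.0532% between the Phase II groups and 0.106% from div12 to div12_48_d), the difference of div12_48_d from div12_48_u being 0.69 ± 0.32 (adjusted p = 0.452). That difference was 0.30 without div12_48_u replicate 1 and 1.09 without div12_48_u replicate 2, and did not pass in either case. The call for div0 was lost without naive replicate 1 (0.0572) or either div0 library (0.121 and 0.102), and that for div12_48_d without either of its own libraries (0.0777 and 0.0660). With a pseudocount of 5 the div12_48_u difference passed (0.0340). The sums of the erythroid, myeloid, NK and T cell markers were also each higher in both naive libraries than in every other library. The part of those cells in the naive share was not tested.

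The balance of the 2 Incenp rows passed in no comparison. NM_016692 made up 53.7% and 36.0% of Incenp TPM in naive, 43.6% and 24.3% in div0, 32.3% and 34.6% in div12, 41.8% and 42.6% in div12_48_u and 31.3% and 43.6% in div12_48_d. The groups overlapped. Each Incenp row rose from naive to div0, NM_016692 by 1.38 ± 0.31 (limma adjusted p = 0.0109) and NM_001369356 by 2.08 ± 0.33 (adjusted p = 0.00255). Neither row passed by itself between div12_48_d and div12_48_u (0.72 and 1.02, adjusted p = 0.185 and 0.0909).

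Because the subunits act together in 1 complex, the ratios of their RNA within each library were also compared, which are free of the scaling between libraries. Birc5 RNA was about equal to Aurkb RNA in naive cells, at ratios of 1.05 and 0.938. The ratio was 2.12 and 2.03 in div0, 2.23 and 3.04 in div12, 1.32 and 1.56 in div12_48_u and 2.11 and 1.73 in div12_48_d. Both naive libraries were lowest and both div12_48_u libraries next. Birc5 to Incenp went from 0.471 and 0.591 in naive to 1.58 and 1.56 in div0, 1.73 and 2.49 in div12, 0.885 and 1.12 in div12_48_u and 1.59 and 1.32 in div12_48_d, again with no overlap of naive or div12_48_u with other groups. Birc5 was thus the rarer RNA than Incenp in naive cells and the more abundant in 7 of the 8 activated libraries. Aurkb to Incenp moved less, with 0.449 and 0.630 in naive and 0.671 to 0.818 in the activated libraries.

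An exact permutation test of the between-group F statistic over all 945 arrangements of the 10 libraries gave p = 0.00212 for Birc5 to Aurkb, 0.00317 for Birc5 to Incenp and 0.00529 for Aurkb to Incenp, which adjusted over 4 ratios were 0.00635, 0.00635 and 0.00705. The ratio of the 2 Birc5 rows gave an exact permutation p of 0.0127 (adjusted 0.0127). The smallest p this design allows is 0.00106. Without the naive group, 105 arrangements remain and the adjusted exact permutation values were 0.0571, 0.0571, 0.0635 and 0.114, so none of the 4 ratios passed among the activated groups alone, where the smallest p is 0.00952.

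**Figure D5:**
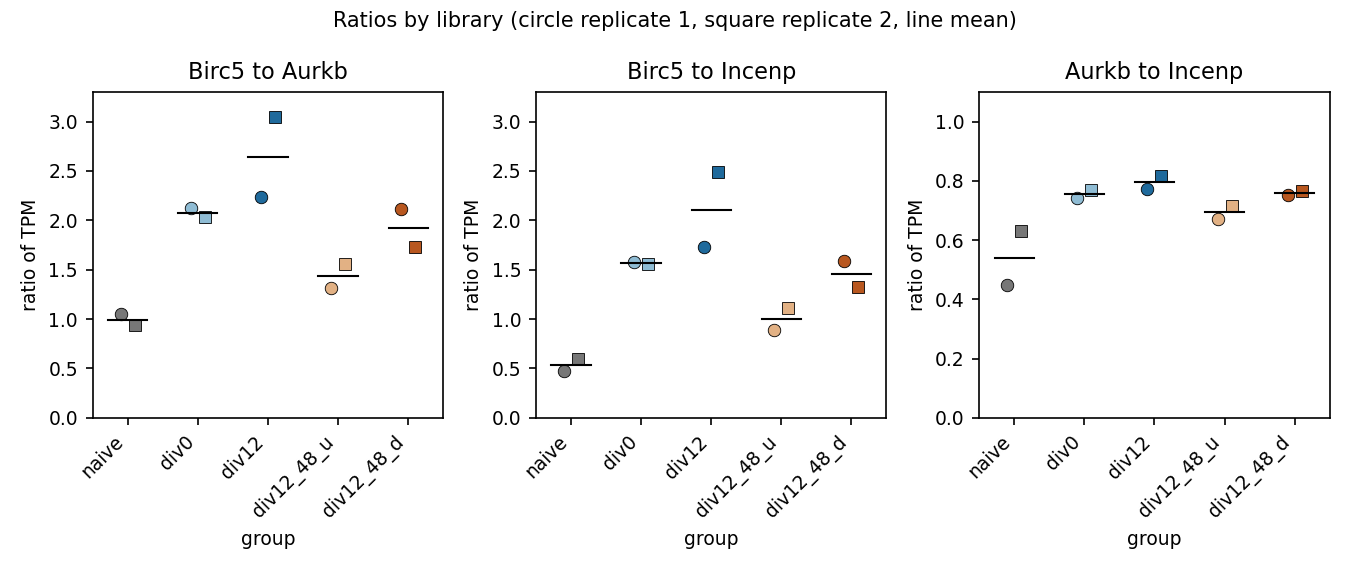
TPM ratios (y axis, from 0, the right panel on its own range) of Birc5 to Aurkb, Birc5 to Incenp and Aurkb to Incenp in each library by group (circles replicate 1, squares replicate 2, line the mean of 2). Birc5 to Aurkb runs from 0.938 in a naive library to 3.04 in a div12 library, while Aurkb to Incenp stays between 0.449 and 0.818.

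The genes whose profile was most like Birc5 were found by the root mean square difference between log2(TPM + 1) profiles over the 10 libraries, each centred on its own mean, among 3474 genes with at least 10 TPM in their highest group. The closest were Bub1 (0.199), a checkpoint kinase of the centromere, Tpx2 (0.210), an activator of Aurora A, and Rrm2 (0.226), a subunit of ribonucleotide reductase. Among the next were Uhrf1 (0.245), Ccnb2 (0.250), Cdk1 (0.261), Rad54l (0.266), Pif1 (0.285) and Ccnb1 (0.297), which include a recombination gene, a reader of newly copied methylated DNA, and mitotic cyclins with their kinase. Pearson's correlation shared 6 of the 10 closest genes. Aurkb ranked 32nd (0.498) and Incenp 56th (0.694) by this measure, which counts the size of a change as well as its direction. Aurkb and Incenp were closer to each other, at 0.229. The gene nearest to Aurkb was Cit (0.140), citron kinase of the cleavage furrow, and the nearest to Incenp was Foxm1 (0.137), a transcription factor of late cycle genes. These last names were chosen after seeing the values.

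Genes of the wider pathway were counted by list, and each count is to be read against the share of all genes called in that comparison. From naive to div0 those shares were 15.4% higher and 39.6% lower, and from div0 to div12 3.68% were higher. From div12 to div12_48_u 13.6% were lower, and in div12_48_d against div12_48_u 12.2% were higher and 13.4% lower. The lists hold between 2 and 17 genes of the table and are partial. The 6 genes in the table of a list of 10 that place the passenger complex at centromeres and the midzone all rose from naive to div0, with a median of 2.73 against −0.24 for all genes, all fell from div12 to div12_48_u (median −1.81) and all were higher in div12_48_d than in div12_48_u (median 1.35). From div0 to div12 Cdk1 was the 1 of these 6 that passed. Bub1, whose mark on histone H2A recruits the complex, measured 7.18 and 6.33 TPM in naive, 56.3 and 71.8 in div0, 105 and 88.6 in div12, 29.8 and 19.5 in div12_48_u and 65.7 and 57.9 in div12_48_d. Its group means had the same order as those of Birc5, with naive and div12_48_u apart from the rest. Plk1, a mitotic kinase, rose by 2.73 ± 0.31 to div0, fell by 1.70 ± 0.31 to div12_48_u and was 1.32 ± 0.31 higher in div12_48_d. Ccnb1, the cyclin that drives entry into mitosis, rose by 2.66 ± 0.22, fell by 1.89 ± 0.22 and was 1.49 ± 0.22 higher in the same comparisons.

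Of the Aurora A and C side, Aurka rose by 2.13 ± 0.18 and Tpx2 by 2.90 ± 0.18 from naive to div0, and both fell to div12_48_u (−1.70 and −1.91) and were higher in div12_48_d (1.20 and 1.29). Aurkc, the Aurora kinase of germ cells, was at 1.11 to 3.60 TPM in all libraries and passed in none of these comparisons. The 2 kinetochore and motor genes in the table of a list of 9 substrates of Aurora B moved likewise but less, Knl1 by 1.19 ± 0.21 and Kif18a by 1.67 ± 0.21 to div0, and the call of Kif18a between the Phase II groups was lost with quantile normalization (adjusted p = 0.127). The 5 genes in the table of 9 that act with the complex at the central spindle all rose to div0 (median 2.36), all fell to div12_48_u (median −1.62) and all were higher in div12_48_d (median 1.04), and 0 of 5 passed from div0 to div12. Kif23, a kinesin that bundles midzone fibres, rose by 2.54 ± 0.19, Prc1, a fibre cross-linker, by 2.14 ± 0.17 and Ect2, which switches on the cleavage furrow, by 1.91 ± 0.20. Of the 2 catalytic subunits of protein phosphatase 1 in the table, which oppose Aurora B, Ppp1cb fell by 0.78 ± 0.11 to div0 and Ppp1cc fell by 0.34 ± 0.09 from div12 to div12_48_u.

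The 2 other inhibitor of apoptosis genes in the table, of a list of 10, did not share the Birc5 profile in size. Birc2 was at 204 and 163 TPM in naive and 220 to 277 TPM in all activated libraries, and rose by 0.30 ± 0.11 to div0 (limma adjusted p = 0.0454). Xiap, which binds caspases directly, stood between 96.0 and 122 TPM in all libraries. It passed neither on activation nor from div0 to div12, nor between the Phase II groups, nor from div12 to div12_48_u. Of 11 genes of the caspase list, 1 rose and 3 fell to div0: Htra2, a mitochondrial protease, rose by 0.57 ± 0.12, and Casp8 and Casp2, initiator caspases, fell by 0.51 ± 0.07 and 0.40 ± 0.10, as did Xaf1 by 0.71 ± 0.17. Of all genes, 15.4% were called higher and 39.6% lower in that comparison, and a difference from these shares was not tested. The Casp2 call was lost with median-ratio scaling (−0.17, adjusted p = 0.123) and with quantile normalization. Between div12_48_d and div12_48_u the calls included Apaf1 upward and Casp6 and Casp8 downward, that of Casp8 being lost with either scaling (adjusted p = 0.139 and 0.0686). The names Xaf1, Apaf1 and Casp6 were chosen after seeing their values.

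Among 10 regulators of cell cycle transcription in the table, 6 rose and 3 fell from naive to div0 (median 0.49), against 15.4% and 39.6% of all genes. Tfdp1, the partner of E2F factors, rose by 1.71 ± 0.12 to div0 and by 0.66 ± 0.12 from div0 to div12, where it was the 1 regulator called. It fell by 0.95 ± 0.12 to div12_48_u and was 0.83 ± 0.12 higher in div12_48_d. Rbbp4, a histone chaperone of the MuvB core, rose by 0.48 ± 0.07 to div0 and fell by 0.34 ± 0.07 from div12 to div12_48_u. The 3 that fell to div0 were Cdkn1a, Rb1 and Rbl2, brakes of the cycle, where the calls of Cdkn1a and Rbl2 were lost with median-ratio scaling (adjusted p = 0.0522 and 0.240) and quantile normalization. Cdkn1a was 1.67 ± 0.38 higher in div12_48_d than in div12_48_u. Their names, and those of Fzr1, Cdc25b and Cdt1 below, were chosen after seeing the values.

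Of 8 genes for turnover, folding and export of survivin, 2 rose to div0, Hsp90ab1 by 0.39 ± 0.14 (not with quantile normalization, adjusted p = 0.304) and Fzr1 by 0.73 ± 0.21. Upward calls took in 15.4% of all genes there, and whether 2 of 8 differs from that share was not tested. Hsp90aa1, a chaperone, rose by 0.41 ± 0.09 from div0 to div12, was 0.41 ± 0.09 higher in div12_48_d than in div12_48_u and fell by 0.67 ± 0.09 from div12 to div12_48_u. Xpo1, the export receptor, fell by 0.57 ± 0.11 in the last of these.

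Reference lists of late and early cycle genes give the setting. Of 8 genes of G2 and M phase, 7 rose to div0 (median 2.63) and 1, Cdc25b, fell; 1, Smc4, rose from div0 to div12 (median 0.49), 8 were higher in div12_48_d (median 1.25) and 7 fell to div12_48_u (median −1.68). Birc5, at 3.38, 0.67, 1.47 and −2.29, lay farther from 0 than each of these medians, and Aurkb and Incenp lay nearer to 0. Mki67, a marker of cycling cells, rose by 2.80 ± 0.21 and Ccna2, cyclin A, by 2.71 ± 0.17 to div0, both less than Birc5. Of 17 genes of S phase, 15 rose and 1, Cdt1, fell to div0 (median 1.37), 10 rose from div0 to div12 (median 0.59), 15 were higher in div12_48_d (median 1.03) and 15 fell to div12_48_u (median −1.48). Pcna, the clamp of the replication fork, Mcm7 and Mcm6, of the replicative helicase, rose by 0.91, 1.37 and 1.21 to div0 and by 0.57, 0.62 and 0.73 from div0 to div12. The share of S phase genes called in that step was 10 of 17, against 1 of 8 for G2 and M phase and 1 of 3 for Birc5, Aurkb and Incenp. Of all genes, 8.76% were called there, and a difference between these shares was not tested.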

How the data were processed

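The data are 10 libraries of ribosome-depleted total RNA, made from 100 ng each and read as 50-base single ends, per the labels' protocols. The authors deposited TPM by RefSeq transcript for the mouse build mm10. The tools in the submitters' processing notes are DESeq2, HISAT2, HTSeq, Salmon and featureCounts. What each was used for, in which version and with which strand setting is not given in the sources used here. The table has 13128 rows. The 13065 that carry a usable symbol were added up to 6610 genes, and the other 63 were not used. TPM keeps no counts, so no count model was fitted and the depth is unknown; the 2 libraries of a group set the precision.

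All 10 libraries entered 1 group-only linear model of log2(TPM + 1) in limma 3.58.1 (R 4.3.3), which leaves 5 residual degrees of freedom. The moderation followed a mean-variance trend, and p-values were adjusted by Benjamini-Hochberg over the genes, rows or multi-row genes tested. The row balance is log2 of a gene's most abundant row over its other rows, each plus 1. Row shares and ratios were computed with scipy 1.17.1, numpy 2.4.6 and pandas 2.3.3 in Python 3.11.15. The fits were tested on simulated data. Ratios used an exact permutation test. Transcript structures and junction sequences come from GENCODE M21 on GRCm38, where NM_001369356 had no match and its structure was not used, and the promoter from RefSeq on GRCm38.p6.

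The text names Birc5, Aurkb and Incenp in every comparison, the 3 members of each gene list with the highest mean TPM, and the 10 genes most like Birc5; 2 genes this rule takes are not reported here. Other names are marked as chosen after their values were seen. The 3 genes and the lists were chosen with earlier results of these data known. Alternatives were pseudocounts of 0.1 and 5, no filter or 5 TPM, median-ratio scaling, quantile normalization, fitting just the groups compared, adding the replicate number as a block, dropping the trend, and leaving out each library in turn, which treats the library left in a group as varying like the rest. A fit without the naive group was added after seeing the data.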

Additional observations from a re-analysis of the deposited data

How the results depend on the processing

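With 2 libraries a group and no counts, precision rests on the spread shared by all groups. Over the settings other than leaving out a library, Birc5 kept its direction and its side of the threshold in 95 of 99 fits, Aurkb in 99 and Incenp in 96, and no direction turned. The exceptions were calls lost at an unchanged log2 value. Birc5 in div12 against div0 (0.67) lost its call with no filter, with the compared groups alone, with no trend and with the replicate block (limma adjusted p = 0.0625, 0.0644, 0.0608 and 0.0528). Incenp in div12_48_u against div0 (−0.96) lost it with no filter and with the compared groups alone (0.0561 and 0.0590), and Incenp in div12_48_d against div12_48_u (0.92) with the compared groups alone (0.0525). Median-ratio scaling moved values against naive upward, to 3.60 for Birc5, 2.54 for Aurkb and 2.05 for Incenp in div0, and changed no call of the 3 genes.

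The labels do not say whether equal replicate numbers pair the samples. Deviations of same-numbered libraries correlated at −0.24 (div0 with div12) to 0.20 (div12_48_u with div12_48_d), with 3 of 10 pairs over 0.1. Such correlations over genes cannot decide whether samples are paired. The replicate block moved the genes called in div12 against div0 from 388 to 247 and changed no other call of the 3 genes.

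Leaving out each library in turn, or the naive group, gave these lowest and highest log2 values. Birc5 ran from 0.49 to 0.86 in div12 against div0, from −0.94 to −0.72 in div12_48_d against div12 and from −0.34 to 0.0324 in div12_48_d against div0. Aurkb ran from −0.25 to 0.18 in that last comparison, from 0.83 to 1.27 in div12_48_d against div12_48_u and from −1.30 to −0.86 in div12_48_u against div0. Incenp ran from −0.23 to 0.16, from 0.66 to 1.19 and from −1.23 to −0.70 in the same 3, from −0.0383 to 0.58 in div12 against div0 and from 0.60 to 1.13 in div12_48_u against naive. For the Birc5 rows, NM_009689 ran from −0.33 to 0.0323 and NM_001012273 from −0.41 to 0.0312 in div12_48_d against div0, and NM_001012273 from −0.16 to 0.71 in the difference of the division contrasts. The row balance ran from −0.00309 to 0.22 in div12 against div0, from −0.00194 to 0.085 in div12_48_d against div0 and from −0.18 to 0.044 in div12_48_d against div12. In comparisons with div12_48_u it ran from 0.30 to 1.09 for div12_48_d against div12_48_u, from −1.16 to −0.37 against div12, from −1.05 to −0.26 against div0 and from 1.12 to 1.91 against naive, and it ran from 0.19 to 0.98 in the difference of the division contrasts. The fall of NM_009689 from div12 to div12_48_d lost its call without any 1 of the div12, div12_48_u and div12_48_d libraries (0.0548 to 0.199) and with no trend (0.0554).

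Over all alternatives the counts of genes called ran from 0 to 607 in div12 against div0 (388 as reported), from 347 to 1432 in div12_48_d against div12_48_u (1134), from 86 to 981 in div12_48_u against div0 (680), from 227 to 962 in div12_48_d against div12 (706), from 300 to 1036 in div12_48_d against div0 (818), from 1082 to 2031 in div12_48_u against naive (1880), from 1213 to 2175 in div12_48_u against div12 (1828), from 1573 to 2603 in div0 against naive (2431) and from 0 to 23 in the difference (0). The causes were not tested. Without the naive group, which leaves 105 arrangements, the adjusted exact permutation p of the ratios was 0.0571 for Birc5 to Aurkb and to Incenp, 0.0635 for Aurkb to Incenp and 0.114 for the Birc5 rows.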
